A study of Drosophila melanogaster with 23 samples.

Results

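ChIP-seq with anti-HA antibodies was compared between adult flies that express HA-tagged full-length Mzfp1 (wt-HA) and flies in which the tagged protein lacks MADF2, the second MADF domain (ΔM2-HA). The comparison rests on 4 of the 23 libraries of the series, which are 2 biological replicates for each protein, and on 1 peak list per protein made from both replicates. The wt-HA list holds 553 regions on the chromosomes and the ΔM2-HA list holds 6215. All 10 lists of the series together hold 27155 regions, a number that includes those on unplaced scaffolds. A region was counted as shared when it overlapped a region of the other list by at least 1 bp. By this rule 434 wt-HA regions were kept in ΔM2-HA, 119 were lost, and 5799 ΔM2-HA regions were new. The other 416 ΔM2-HA regions lay over a wt-HA region. Regions were named by the gene with the transcription start site (TSS) nearest to the summit. A promoter region is one that comes within 200 bp of a TSS.

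Both groups were adults aged 2 to 3 days of the genotype CG1603attP/CyO; U:Mzfp1*/TM6,Tb, in which 1 copy of CG1603, the gene of Mzfp1, is deleted and the other is intact. The tagged cDNA was driven by the strong Ubi-p63E promoter from 1 landing site on chromosome arm 3R, so it was expressed in most cells and not under its own control. Anti-HA is directed at the tagged protein, while the untagged endogenous protein remains in the same nuclei. The lists do not tell DNA bound directly by the tagged protein from DNA reached through other proteins. Immunoblots of the study showed more ΔM2-HA than wt-HA protein at similar transcript levels, and the part of this in the length of the lists was not tested. Whole flies were used, and a signal from few cells cannot be told apart from a weak signal in many. By the study's account the peaks were called against a preimmune control, for which the series has 1 anti-HA library from adults. Untagged sites are regions that overlap a peak of the anti-Mzfp1 lists from y1w1118 flies, the untagged strain (1 adult list and 2 embryo lists). Each embryo list came from 1 library and, by the study's methods, was called without the replicate step used for the adult list. With 1 list per protein no value has a replicate error and no test between the proteins was possible. Intervals in brackets are 95% intervals (Wilson for a share, Newcombe for a difference of shares) that treat regions as independent and cover counting error only. The lists hold no read counts, so the depth behind each fold enrichment is unknown here.

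Regions at the genes used in the construct were examined first. They cannot tell ΔM2-HA from wt-HA, since the lists hold no coverage within the deleted MADF2 part. Only at CG1603 was a region found in every list from transgenic flies. At CG1603 (chr2R:7513846-7516390) both lists held a region, with a fold enrichment over the control of 2.65 in wt-HA and 5.42 in ΔM2-HA. The wt-HA region, at 7514324 to 7516414, spanned the coding part of the gene at 7514330 to 7516264, and the summits of both regions lay in coding exons. All 7 lists from transgenic flies held a region there and the 3 lists from y1w1118 held none. Upstream of Ubi-p63E, whose promoter drives the transgene (the nearest TSS was that of Sc2), the fold enrichment was 2.68 in wt-HA and 4.12 in ΔM2-HA, and the same part was in no y1w1118 list. This part was also absent from the anti-HA list of flies whose tagged protein lacks several zinc fingers. At y, wt-HA had regions with fold enrichments of 3.06 and 3.10 and ΔM2-HA had 1 with 2.87. No list made with anti-Mzfp1 held a region at y. The Ubi-p63E and y sequences are present in extra copies in flies with the construct. The coding part of CG1603 is not, since 1 endogenous copy is deleted and the transgene adds 1. The share of all these regions that reflects copy number was not tested. Leaving them out gave 431 of 549 wt-HA regions kept and 5799 of 6212 ΔM2-HA regions new.

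Mzfp1 is a zinc finger protein with a C-terminal cluster of C2H2 zinc fingers, which contacts DNA, and a pair of MADF domains, a fold related to Myb domains that can bind DNA or other proteins. It interacts with CP190, a cofactor that architectural proteins bring to insulators and to the promoters of housekeeping genes. Pericentromeric heterochromatin is the compact, repeat-rich chromatin beside the centromeres. In Drosophila it also holds many active genes, and the small chromosome 4 has many of the same features.

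Short stretches around region summits are shown as examples of a promoter word in kept, lost and new regions, most of which do not hold it. They were chosen because each holds TATCGATA, the core recognised by DREF, a factor of housekeeping promoters, and containing the CGATA word bound by BEAF-32, a boundary protein. Each is 30 bases of the plus strand of the RefSeq Release 6 assembly (dm6), with that word in capitals and its place relative to the nearest TSS given after the list.
Prosalpha6 (kept, chr2L:10221324-10221353): cccgaatccctTATCGATAcccgatacaca
vtd (kept, chr3L:27136515-27136544): attttaaatgaTATCGATAatttgataaaa
eEF1delta (kept, chr2L:10232467-10232496): gatggcgtagaTATCGATAtacctgcattc
sun (lost, chrX:15849375-15849404): gtaacatttgtTATCGATAtccaaactcaa
Prp39 (lost, chr3R:28812078-28812107): cgggacatgtaTATCGATAccacgttgcaa
Trf4-1 (new, chrX:8560604-8560633): cttatcaggtcTATCGATAacatcgctcat
RpS15Aa (new, chrX:13337695-13337724): ctcaacgtgccTATCGATAgttagccggac
The middle of the stretch lay 12 bp from the TSS of Prosalpha6, a proteasome subunit gene, 5 bp from that of vtd, which encodes a cohesin subunit, and 25 bp from that of eEF1delta, a translation elongation factor gene. It lay 132 bp from the TSS of sun, 9 bp from that of Prp39, a splicing factor gene, 10 bp from that of Trf4-1 and 5 bp from that of RpS15Aa. The fold enrichments at Prosalpha6 were 48.3 in wt-HA and 70.2 in ΔM2-HA, at vtd 40.4 and 36.8, and at eEF1delta 37.1 and 49.8. At the lost regions of sun and Prp39 the wt-HA fold enrichment was 12.1 and 3.48, and at the new regions of Trf4-1 and RpS15Aa the ΔM2-HA fold enrichment was 5.06 and 4.29. Both new examples are from untagged sites. Since the stretches were chosen for the word, they do not show how frequent it was.

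Within 100 bp of the summit, TATCGATA was found on either strand in 33 of 434 kept (7.60%, 5.47 to 10.5%), 6 of 119 lost (5.04%) and 37 of 487 new regions at an untagged site (7.60%). It was found in 19 of 5312 new regions at no untagged site (0.358%). Of 23694 TSS windows of the same length, 5.43% held the word, and of 68675 windows spaced evenly over the genome 0.537%. GGTCACACT, the core of the motif bound by the promoter factor M1BP, was found in 29 kept (6.68%), 4 lost (3.36%) and 33 new regions (0.569%), against 3.69% of TSS windows and 0.178% of genome windows. GAGAGAG, a word bound by GAGA factor, was most frequent in new regions, with 9 kept (2.07%), 2 lost (1.68%) and 569 new regions (9.81%), against 4.48% of TSS windows and 2.41% of genome windows. CAGCAGCAG, a repeat that in coding sequence often encodes runs of glutamine, was found in 11 kept (2.53%), 3 lost (2.52%) and 687 new regions (11.8%), against 1.62% of TSS windows and 1237 of the 68675 genome windows. A match to a word is a description of the letters and not of a bound factor. GC content of these windows had a median of 40.5% in kept, 50.7% in lost and 51.2% in new regions, against 42.3% over the genome.

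Of the 553 wt-HA regions, 78.5% were kept in ΔM2-HA (434 regions, 74.9 to 81.7%), while the ΔM2-HA regions covered 2.80% of the chromosomes and the wt-HA regions 0.312%. The overlap of the kept pairs was not marginal, with a median of 608.5 bp and a smallest value of 176 bp, and the summits of 358 pairs (82.5%) lay within 100 bp of each other. Whether a region was kept followed its strength in wt-HA. In the quartile with the highest wt-HA fold enrichment, from 11.5 to 225, 136 of 138 regions were kept (98.6%). In the next quartile it was 119 of 138 (86.2%), then 93 of 138 (67.4%), and 86 of 139 (61.9%) in the lowest, from 1.99 to 2.59. The kept share was also higher for promoter regions (358 of 406, 88.2%) than for other regions (76 of 147, 51.7%), a difference of 36.5 points (27.8 to 45.0). It was higher for untagged sites (328 of 357, 91.9%) than for regions at none (106 of 196, 54.1%), a difference of 37.8 points (30.2 to 45.2). From the lowest quartile of fold enrichment to the third, the difference for promoters was 30.8 points (14.7 to 44.7), 42.4 points (25.3 to 56.7) and 10.5 points (-3.21 to 29.6), the last with an interval that spans 0. For untagged sites it was 39.2 points (23.1 to 50.9), 29.5 points (13.8 to 43.3) and 22.8 points (7.80 to 40.5). In the highest quartile, where nearly all regions were kept, they were -1.50 points (-5.32 to 41.96) and -1.47 points (-5.20 to 64.3).

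**Figure D1:**
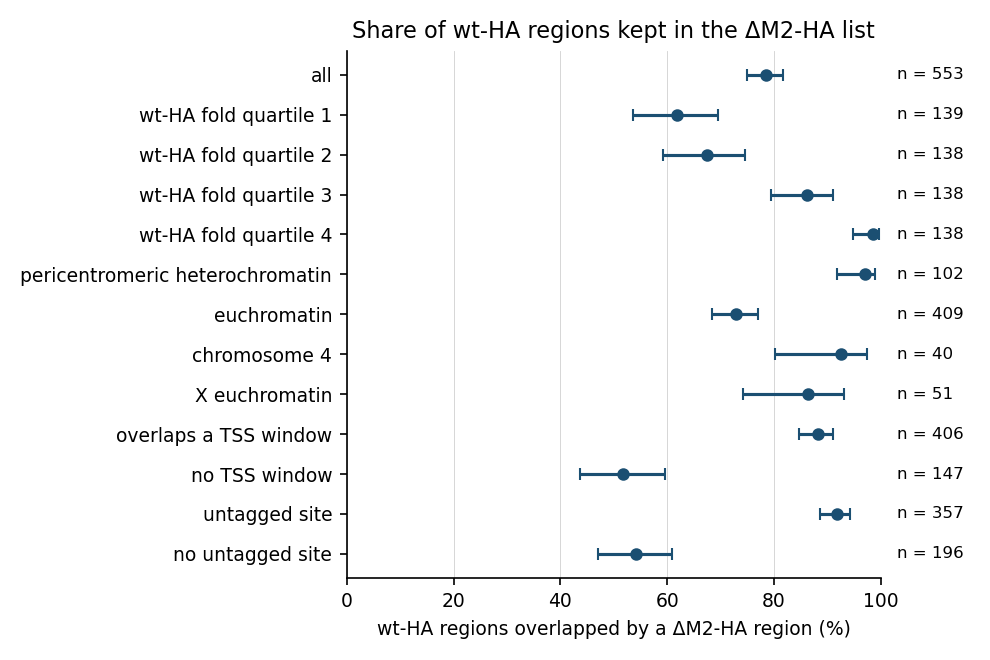
Share of wt-HA regions (x axis, %) that a ΔM2-HA region overlaps by at least 1 bp, for all regions and for groups of regions (y axis). Points are shares, bars are 95% Wilson intervals (counting error only) and n is the number of wt-HA regions; the share runs from 51.7% for regions at no TSS window to 98.6% for the quartile of highest fold enrichment.

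The share of kept regions depends on how many ΔM2-HA regions are used. With the ΔM2-HA list cut to its 553 regions of highest fold enrichment (4.37 and above), 278 wt-HA regions were kept (50.3%) and 295 ΔM2-HA regions were new (53.3%). Of the 25 strongest wt-HA regions all 25 were somewhere in the ΔM2-HA list and 15 were among its 25 strongest, and of the 100 strongest 99 were in the list and 75 among its 100 strongest.

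The 8 strongest kept regions were promoter regions, and each of them was found in every one of the other 8 lists. The strongest wt-HA region lay at RpL23A, a gene for a protein of the large ribosomal subunit, with a fold enrichment of 225 in wt-HA and 56.7 in ΔM2-HA. At RNASEK, which encodes ribonuclease kappa, it was 155 and 97.6, the highest value of the ΔM2-HA list. Hr39, a nuclear receptor gene, had 146 and 86.2. CG1677 had 143 and 48.8. Pc, which encodes the chromodomain subunit of Polycomb repressive complex, had 112 and 29.8. The remaining members were RpL5 (97.3 and 64.8), Maf1, which encodes a repressor of RNA polymerase III (93.5 and 71.9), and CG3107 (85.1 and 52.6). All 8 values were lower in ΔM2-HA, a direction that choosing the highest wt-HA values favours, and the order within the list changed from 1 to 19 at RpL23A and from 2 to 1 at RNASEK. At RpL23A the -log10 p in the 2 inputs of the reproducibility step was 14715 and 14542 in wt-HA and 2376 and 2251 in ΔM2-HA.

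Over all kept pairs the fold enrichment was higher in ΔM2-HA at 302 of 434 (69.6%), with a median ratio of ΔM2-HA to wt-HA of 1.31 (quartiles 0.881 and 1.76). By strength in wt-HA, its median was 1.55 in the lowest quartile of wt-HA fold enrichment, 1.35 and 1.35 in the middle quartiles and 0.908 in the highest. The wt-HA value both sets these quartiles and divides the ratio, so a lower ratio in higher quartiles follows in part from the split. Fold enrichments of the 2 lists were related across kept regions with Spearman's rho of 0.668 (n = 434), 0.801 in heterochromatin (n = 99) and 0.503 in euchromatin (n = 298). These are descriptions over regions of 1 list each, which the study appears to have called against the same control library. A weak wt-HA region could be counted as kept only if it was called in ΔM2-HA too, which sets a lower bound to its ratio.

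**Figure D2:**
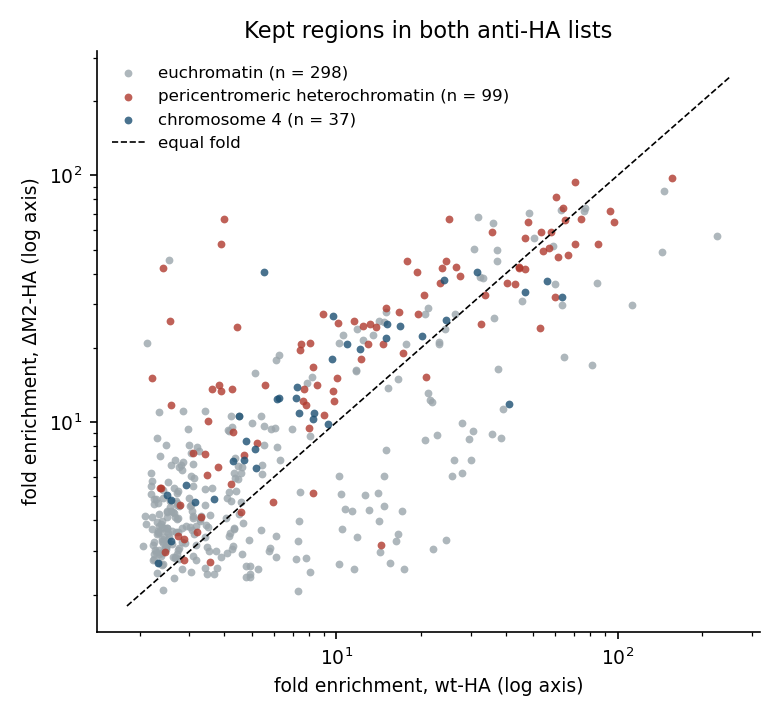
Fold enrichment over control in wt-HA (x axis) and ΔM2-HA (y axis), both on log axes, for the 434 kept wt-HA regions, coloured by place; the dashed line marks equal values. Heterochromatic regions and regions of chromosome 4 lie mostly on or above the line, and strong euchromatic regions spread down to a ratio below 0.5.

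Among kept regions of the highest quartile, the ratios differed by place but overlapped. The ratio was above 1 for 29 of 50 heterochromatic and 22 of 74 euchromatic regions. In heterochromatin the median ratio was 1.13 (50 regions, quartiles 0.858 and 1.61), and 2 of 50 fell below 0.5 (4.00%). On chromosome 4 it was 1.20 (12 regions) with 1 below 0.5. In euchromatin the median was 0.534 (74 regions, quartiles 0.281 and 1.16), and 36 of 74 fell below 0.5 (48.6%). The difference in the share below 0.5 between euchromatin and heterochromatin was 44.6 points (30.1 to 56.2), and 43.6 points (27.7 to 55.4) without pairs in which 1 ΔM2-HA region covers several wt-HA regions. Within euchromatin, 12 of 16 regions of the X chromosome (75.0%, 50.5 to 89.8%) and 24 of 58 autosomal regions (41.4%, 29.6 to 54.2%) fell below 0.5, a difference of 33.6 points (5.97 to 52.5). Examples chosen after their values were seen are the euchromatic promoters of La, which encodes an RNA-binding protein of polymerase III transcripts (24.6 in wt-HA and 3.35 in ΔM2-HA), and of Prp8, a core protein of the spliceosome (16.3 and 3.32).

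Kept regions were also ordered by the change of their percentile in the list of each protein. The lists differ in length and the ΔM2-HA regions over a wt-HA region have a median percentile of 96.0, so the largest rises belong to regions at the end of the wt-HA list and are given as a description. Their places within the 434 kept pairs are given in brackets. The largest rises lay at lncRNA:mimi (place 431 in wt-HA and 100 in ΔM2-HA), at ND-MLRQ, a gene for a subunit of respiratory complex I (424 and 124), at Karybeta3, an importin gene (429 and 219), at fl(2)d, which encodes a subunit of the RNA methyltransferase complex (430 and 234), and at Pka-C1, the catalytic subunit of protein kinase A (426 and 229). At the first of these the same ΔM2-HA region also covered another wt-HA region, and the summits were 1204 bp apart; at ND-MLRQ they were 1120 bp apart, also with another wt-HA region under the ΔM2-HA one. At the other regions of this group the summits were 17 to 72 bp apart. Here lncRNA:mimi and ND-MLRQ are the next nearest genes, since the nearest TSS belongs to an entry with only an identifier. At fl(2)d the fold enrichment was 2.19 in wt-HA and 5.51 in ΔM2-HA. By place within the pairs the largest rise was at CkIIalpha (387 and 42), where the fold enrichment was 2.41 and 42.2. The same ΔM2-HA region also covered the stronger wt-HA region of RpL10, which had 44.7. At CG11779, also chosen after its values were seen, it was 2.55 and 45.5.

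The 5 regions with the largest fall of percentile were all euchromatic. At asl, a centriole gene, the fold enrichment was 17.4 in wt-HA (place 97 of the pairs) and 2.55 in ΔM2-HA (place 420). At COX7AL2, a gene of the cytochrome oxidase subunit family, it was 11.5 and 2.55. At wde, which encodes a cofactor of the histone methyltransferase Eggless, it was 8.09 and 2.47, and at CG10863 it was 7.28 and 2.08. At Stat92E, the transcription factor of the JAK/STAT pathway, it was 4.91 and 2.36. All 5 regions overlapped a y1w1118 adult peak.

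The study asked how each domain of Mzfp1 contributes to where it binds, and heterochromatin was one of the places it compared. With anti-HA it reported no significant difference between these proteins at heterochromatic sites. With anti-Mzfp1 it reported considerably lower binding there in ΔM2-HA adults. On larval polytene chromosomes it saw ΔM2-HA move from pericentromeric heterochromatin to euchromatin. Of the wt-HA regions in pericentromeric heterochromatin, defined on the 5 large arms, 99 were kept and 3 were lost (97.1% kept, 91.7 to 99.0%), against 298 of 409 in euchromatin (72.9%, 68.4 to 76.9%), a difference of 24.2 points (17.5 to 29.1). On chromosome 4, 37 of 40 regions were kept (92.5%), and both regions on the Y chromosome were lost. Heterochromatic regions were also stronger in wt-HA, with a median fold enrichment of 10.1 against 3.10. Within quartiles of wt-HA fold enrichment the difference was 40.5 points in the lowest (7 of 7 against 75 of 126, 4.11 to 49.2), 22.5 points (-2.32 to 35.3), 15.4 points (0.145 to 25.2) and 2.63 points in the highest (-4.75 to 9.10). When an overlap of at least 50% of both regions was required, the difference turned to -10.7 points (-20.7 to 0.159). A pair whose widths differ by more than 2 times cannot meet that requirement, which applied to 59 of 99 heterochromatic kept pairs and, in euchromatin, to 81 of 298 that were wider and 12 that were narrower.

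The strongest kept heterochromatic regions, a set added after the values were seen, were those of RNASEK, RpL5, Maf1 and CG3107, which are given above, CG17528 (73.9 in wt-HA and 66.4 in ΔM2-HA) and CG40228 (70.6 and 94.0). All 6 were promoter regions found in every other list. The 3 heterochromatic regions lost in ΔM2-HA were outside promoters. The region in an intron of CG12061 on the X chromosome had a wt-HA fold enrichment of 7.04 and was also in the wt-HA anti-Mzfp1 list. The regions nearest to CR42530 (3.10) and Slmap (3.06), which lay 12168 bp and 11304 bp from the TSS, were in none of the other lists.

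Kept regions were wider in ΔM2-HA, and more so in heterochromatin. The median width was 925 bp in wt-HA and 2426 bp in ΔM2-HA for the 99 heterochromatic pairs, with a median ratio of 2.29 (quartiles 1.53 and 3.40) and 96 of 99 wider. For the 298 euchromatic pairs it was 619 and 920.5 bp, with a ratio of 1.35 (0.977 and 2.10) and 214 wider. On chromosome 4 the ratio was 2.30, with 35 of 37 wider. In the highest quartile of wt-HA fold enrichment, all 50 heterochromatic regions were wider (median ratio 2.19), while in euchromatin 46 of 74 were (1.07). Part of the widening came from ΔM2-HA regions that cover several wt-HA regions, of which there were 19. With only pairs of 1 to 1 the ratio was 1.91 in heterochromatin (71 pairs) and 1.33 in euchromatin (288 pairs), and with an overlap of 50% of both regions it was 1.47 and 1.15. The boundaries are those of the first of the 2 inputs of the reproducibility step, and with those of the second the ratio was 2.05 in heterochromatin and 1.34 in euchromatin.

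**Figure D3:**
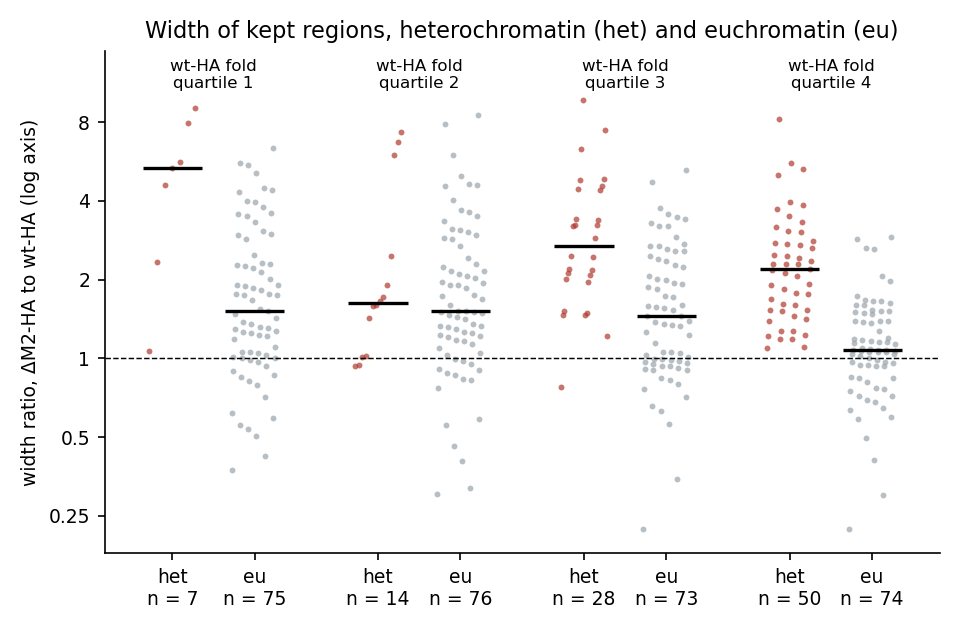
Width of the ΔM2-HA region divided by that of the kept wt-HA region it overlaps (y axis, log axis), in heterochromatin (het) and euchromatin (eu) for each quartile of wt-HA fold enrichment (quartile 1 is the lowest). Each point is a kept wt-HA region, black lines are medians and the dashed line marks equal width; in quartile 4 the medians are 2.19 in heterochromatin and 1.07 in euchromatin.

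The largest ratio was at CG14464, where a region of 715 bp in wt-HA lay in a ΔM2-HA region of 6924 bp that covered 3 wt-HA regions, the promoter region of CG17528 among them. The next were at CkIIalpha, the catalytic subunit gene of casein kinase (295 and 2683 bp), at lncRNA:CR43840 (178 and 1516 bp), at UQCR-11, a gene of respiratory complex III (682 and 5632 bp), and at CG10465 (357 and 2843 bp). Apart from that of lncRNA:CR43840, these regions were heterochromatic and each ΔM2-HA region covered more than 1 wt-HA region. The ΔM2-HA region was narrowest relative to wt-HA at CG15432 (3168 bp in wt-HA and 706 bp in ΔM2-HA), wde (905 and 202 bp), Rpn7, a proteasome subunit gene (1663 and 499 bp), CR42490 (2397 and 726 bp), and in a coding exon of Calr near sisRNA:CR46357 (1465 and 467 bp). All 5 were euchromatic.

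The 119 lost regions were weaker, less often promoters and less often untagged sites than the kept ones. Their median wt-HA fold enrichment was 2.68 (quartiles 2.42 and 3.16) against 4.64 (2.74 and 15.0) for kept regions, and their median width 470 bp against 668 bp. A promoter was overlapped by 48 lost regions (40.3%, against 82.5% of kept regions, a difference of 42.2 points, 32.4 to 51.2) and an untagged peak by 29 (24.4% against 75.6%, 51.2 points, 41.8 to 59.0). With only regions at the highest reproducibility score in both lists, these differences were 17.4 and 12.4 points, and with the overlap of 50% of both regions 17.5 and 11.4 points. Coding exons held the summits of 31 lost (26.1%) and 29 kept regions (6.68%). Of the lost regions, 56 (47.1%) were in the wt-HA anti-Mzfp1 list, against 385 kept regions (88.7%), and 34 (28.6%) were in no other list, against 6 (1.38%). None of the 117 lost regions outside the Y chromosome lay within 200 bp of a ΔM2-HA region, and the median distance to the nearest was 5261 bp.

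Only 2 lost regions belonged to the highest quartile of wt-HA fold enrichment. The strongest, on the X chromosome 220 bp from the TSS of CG2681 (chrX:2708117-2708834), had a fold enrichment of 22.8, with a -log10 p of 617 and 567 in the 2 inputs, and lay 22952 bp from the nearest ΔM2-HA region. It was present in the anti-Mzfp1 lists of y1w1118, wt-HA and Δ42-HA adults and in the Δ42-HA anti-HA list. Δ42-HA is a tagged protein without the region that binds CP190. The next was the promoter of sun on the X chromosome (12.1), a gene for the epsilon subunit of mitochondrial ATP synthase, which was in all of the other lists except that of ΔZF-HA, a tagged protein without several of the zinc fingers. With anti-Mzfp1 in the same ΔM2-HA flies the sun region was thus found, while that of CG2681 was not.

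The other named lost regions were weaker. The fold enrichment was 8.62 at the promoter of Ssl2, 6.89 in an intron of AdamTS-A, a secreted metalloprotease gene (the nearest TSS was that of Act88F, the flight muscle actin), and 6.04 near Cp18. Cp18 is a chorion gene of the eggshell, in a cluster that follicle cells amplify, and its region was in the wt-HA anti-Mzfp1 list and in no other. The promoters of CG13585, of Orc5, a subunit of the origin recognition complex, and of Cyp12c1, a cytochrome P450 gene, had 5.98, 5.97 and 5.32. The region at sina, an E3 ubiquitin ligase gene that lies in an intron of the opsin gene Rh4, had 4.84, and a ΔM2-HA region lay 524 bp away. Of the 10 strongest lost regions all 10 were in the wt-HA anti-Mzfp1 list, 7 were in the y1w1118 adult list and 2, those of sun and Cyp12c1, in the ΔM2-HA anti-Mzfp1 list.

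Of the 6215 ΔM2-HA regions, 93.3% were new (5799 regions, 92.7 to 93.9%). They were weak, with a median fold enrichment of 2.89 (quartiles 2.61 and 3.32) against 5.82 for ΔM2-HA regions over a wt-HA region, and none exceeded 15.1. Read down the ΔM2-HA list by fold enrichment, all of the first 100 regions lay over a wt-HA region, 85 of the second 100, 36 of the third 100, 34 of the next 200 and 29 of the 2215 at the end of the list. At an untagged site were 100, 83, 44, 45 and 153 of these regions. The summit lay in a coding exon for 0, 3, 16, 62 and 519 of them, which is 31.0% of the 200 and 23.4% of the 2215. New regions were thus few at the top of the list and nearly all regions from its middle down.

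**Figure D4:**
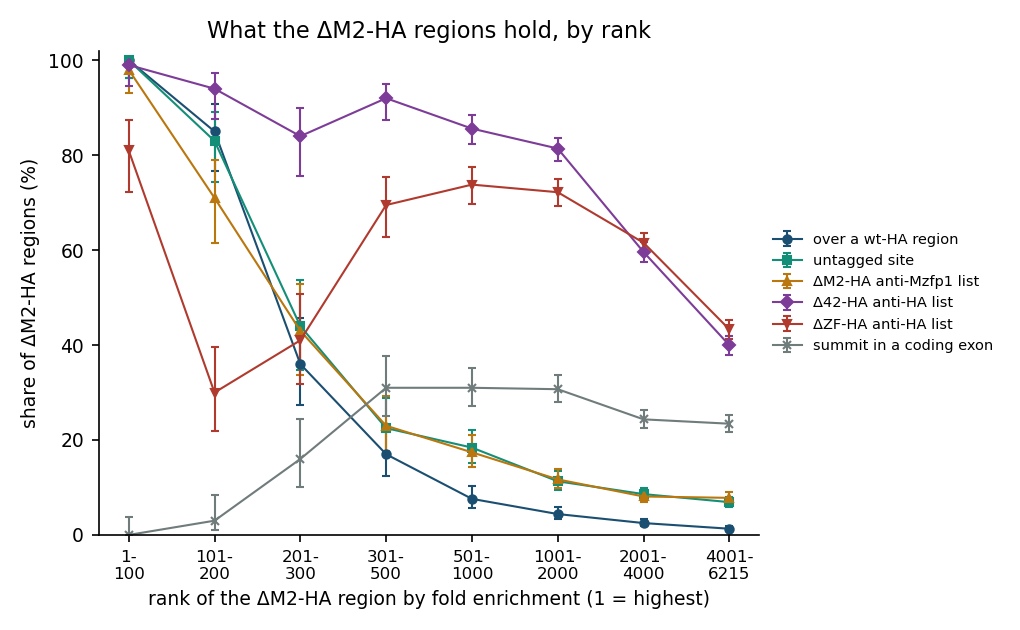
Share of ΔM2-HA regions (y axis, %) with each property, by rank of fold enrichment in the ΔM2-HA list (x axis, rank 1 is the highest). Bars are 95% Wilson intervals; the share over a wt-HA region runs from 100% in the first bin to 1.31% in the last, where the shares in the ΔZF-HA and Δ42-HA anti-HA lists are 43.3% and 39.95%.

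New regions differed from kept ones in place and class. A promoter was overlapped by 1738 (29.97%, against 82.5% of kept regions, -52.5 points, -56.0 to -48.5), and an untagged peak by 487 (8.40% against 75.6%, -67.2 points, -71.0 to -62.9). By summit, 1757 lay in introns (30.3%), 1514 in coding exons (26.1%), 998 within 200 bp of a TSS (17.2%), 887 between genes (15.3%) and the rest in UTRs or non-coding exons. Over evenly spaced genome positions the shares were 41.0% for introns, 15.99% for coding exons, 5.88% for TSS windows and 29.9% for intergenic positions. Heterochromatin held 134 of 5768 new regions on the 5 arms (2.32%), against 19.96% of 511 wt-HA regions, a difference of -17.6 points (-21.3 to -14.4). Among regions at the highest reproducibility score it was -31.3 points. The heterochromatin as defined makes up 12.9% of the 5 arms.

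**Figure D5:**
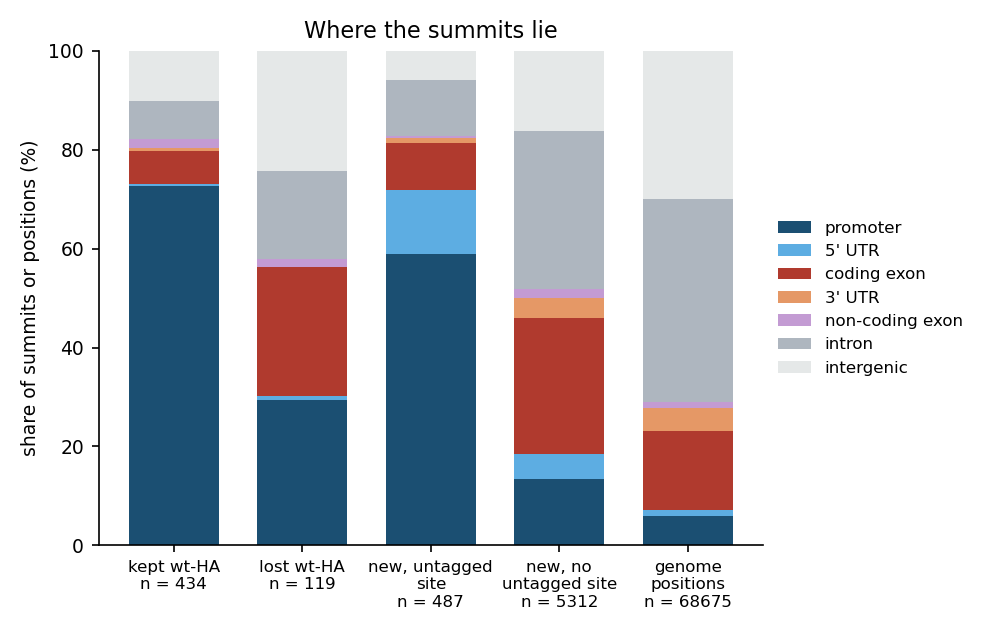
Share of summits (y axis, %) in each class of the annotation for kept and lost wt-HA regions and for new ΔM2-HA regions at an untagged site or at none, beside evenly spaced genome positions; n is the number of summits or positions. Summits within 200 bp of a TSS make up 72.6%, 29.4%, 58.9% and 13.4% of the 4 sets and 5.88% of positions.

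New regions at untagged sites were mostly promoter regions, as were the kept ones. Of these 487 regions, 440 overlapped a promoter (90.3%), 287 had the summit within 200 bp of a TSS (58.9%) and 447 were in the y1w1118 adult list (91.8%). They were wider than the other new regions, with a median of 751 bp against 449 bp, and only a little stronger, with a median fold enrichment of 3.09 against 2.88. In the anti-Mzfp1 list of the same ΔM2-HA flies, in which the antibody also meets the endogenous protein, 387 were found (79.5%), and in that of wt-HA flies 399 (81.9%). The strongest was at the promoter of cold, a gene of septate junctions (fold enrichment 15.1, chr2L:573927-575078). Then came Ubc4, a ubiquitin-conjugating enzyme gene (10.3), an exon of bves near CG32512 (9.62), Hakai, an E3 ubiquitin ligase gene (8.45), Sps1, a selenophosphate synthetase gene (7.91), csw, the tyrosine phosphatase of receptor tyrosine kinase signalling (7.59), BEAF-32 (7.56) and CG11970 (6.62).

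The 5312 new regions at no untagged site had a promoter in 1298 cases (24.4%), and 1702 had the summit in an intron (32.0%) and 1468 in a coding exon (27.6%). The strongest was at the promoter of Alr, a sulfhydryl oxidase gene (9.01), followed by an intergenic heterochromatic region 2806 bp from the TSS of the splicing factor gene Spf45 (8.94, chr2L:23064633-23066094) and an intron of CG5953 (8.76). CG15023 had 7.28 in a coding exon. At Hsp27, a small heat shock protein gene, the region had 7.23 with its summit in the 3' UTR. The promoter of lute (7.22) and the 5' UTR of qm, a geranylgeranyl diphosphate synthase gene (6.86), were among the others. Coding exons of CG34220 (7.19) and of cpo, an RNA-binding protein gene whose region lay nearest to the TSS of DNaseII (6.99), also carried regions, as did an intergenic heterochromatic site 14109 bp from CG41099 (6.75). Of these 10 regions, 9 were in the Δ42-HA anti-HA list and 6 in the ΔZF-HA list, 2 (those nearest to Spf45 and lute) were in the wt-HA anti-Mzfp1 list and none was in the ΔM2-HA anti-Mzfp1 list.

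New regions were spread over many genes. Their summits fell in 2883 genes, of which 1962 had 1, 921 had 2 or more and 172 had 5 or more. Rbp6, an RNA-binding protein gene of 179 kb, had 22 (15 in introns and 2 in coding exons), with fold enrichments from 2.45 to 3.79, and none of them at an untagged site. Eip74EF, an ecdysone-induced transcription factor gene of 60.7 kb, had 19, Snoo, a gene of 93.0 kb, had 17, and Tet, which encodes the Drosophila homologue of the TET dioxygenases, had 16. Long genes offer more positions, and these numbers are not corrected for length.

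The other lists were set beside the same regions. Of the 5799 new regions, 3409 were in the anti-HA list of Δ42-HA (58.8%) and 3403 in that of ΔZF-HA (58.7%). Of the kept regions, 383 (88.2%) and 165 (38.02%) were in these lists. In both lists were 2274 new regions (39.2%), and 986 were in no other list of the series. With anti-Mzfp1 in the same ΔM2-HA flies, 500 new regions were found (8.62%), against 302 kept regions (69.6%), a difference of -61.0 points (-65.2 to -56.4). The Δ42-HA and ΔZF-HA lists hold 6192 and 6187 regions on the chromosomes, close to the length of the ΔM2-HA list, and the anti-Mzfp1 list of ΔM2-HA holds 1611. For ΔZF-HA with anti-HA the study reported neither true peaks nor a significant signal. On larval polytene chromosomes the study saw ΔZF-HA at several euchromatic sites and enriched in heterochromatin. A region's presence in the ΔZF-HA list is given here as a shared call. Whether it reflects binding by that protein was not tested. The 4 anti-HA lists appear to share 1 control library, whose part in regions common to the lists was not tested. The share of new regions also in the ΔZF-HA list rose with ΔM2-HA fold enrichment, from 39.9% in the lowest quartile of new regions to 74.5% in the highest, and that in the Δ42-HA list from 37.6% to 84.6%.

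By chromosome, the X chromosome held 53 of 553 wt-HA regions (9.58%) and 409 of 6215 ΔM2-HA regions (6.58%), a difference of -3.00 points (-5.81 to -0.728), while it makes up 17.1% of the chromosome length. With both lists cut to 553 regions the difference was -0.362 points (-3.84 to 3.11). In euchromatin of the X chromosome 44 of 51 wt-HA regions were kept (86.3%, 74.3 to 93.2%), against 64.4 to 74.3% on the 4 large autosomal arms. The X regions were also stronger in wt-HA, with a median fold enrichment of 4.55 against 2.88 to 3.13, and the kept share followed strength. New regions were more frequent on 3L and 3R (24.0% and 28.6%) than kept regions were (14.3% and 21.4%), by 9.70 points (5.94 to 12.9) and 7.20 points (2.94 to 10.99). Chromosome 4 held 37 kept (8.53%) and 31 new regions (0.535%).

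Promoters were then read by gene. Of 18277 annotated genes, 561 (3.07%) had a wt-HA region at the promoter and 2633 (14.4%) a ΔM2-HA region, 484 had both, 2149 (11.8%) gained one in ΔM2-HA and 77 (0.421%) lost one. Of the 2149, 38 gained only because a wider ΔM2-HA region over a wt-HA region reached a further TSS. The following lists were chosen with earlier results of these data known, and their counts are set beside these shares over all genes. All genes include non-coding ones. Over the 13968 protein-coding genes the shares were higher, 3.59% in wt-HA, 16.5% in ΔM2-HA, 13.4% gained and 0.465% lost.

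Of 93 cytoplasmic ribosomal protein genes, 17 had a wt-HA region (18.3%) and 32 a ΔM2-HA region (34.4%), with 16 gained (17.2%) and 1 lost (1.08%). Besides RpL23A and RpL5, RpL15 went from 64.1 to 74.0 and RpS27A from 36.1 to 64.2. RpL8 (5.69) and RpL7A (5.60) were the strongest gained members of this list, and RpS2 (2.29 in wt-HA) was the lost one. Of 73 mitochondrial ribosomal protein genes, 5 had a wt-HA region (6.85%) and 12 a ΔM2-HA region (16.4%), with 7 gained (9.59%) and 0 lost. The gained share was below the 11.8% over all genes. Among them mRpS30 went from 35.6 to 8.97 and mRpS7 from 21.1 to 13.2, while mRpS5 went from 9.71 to 13.4. Of 89 oxidative phosphorylation genes, 9 had a wt-HA region (10.1%) and 19 a ΔM2-HA region (21.3%), with 10 gained (11.2%) and 0 lost. UQCR-11 went from 35.7 to 58.9, ND-30 from 21.2 to 28.9, ND-AGGG from 17.2 to 19.1 and ND-49, on chromosome 4, from 12.1 to 19.8. At COX7AL2, counted as gained, the strongest ΔM2-HA promoter region (9.66) lay over a wt-HA region (5.54) that did not reach the TSS window. The sun gene is not in this list, and its promoter region was lost.

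Of 21 Polycomb group genes, which keep developmental genes silent, 5 had a wt-HA region (23.8%) and 12 a ΔM2-HA region (57.1%), with 7 gained (33.3%) and 0 lost. Pc fell from 112 to 29.8, sxc, which encodes the O-GlcNAc transferase, went from 12.2 to 18.1, and pho, a DNA-binding recruiter on chromosome 4, from 7.22 to 13.9. Su(z)2 (5.37) and Su(z)12 (3.65) were the strongest gained members, both at no untagged site. Of 16 genes of architectural and insulator proteins, 4 had a wt-HA region (25.0%) and 7 a ΔM2-HA region (43.75%), with 3 gained (18.75%). These were BEAF-32 (7.56), Cp190 (2.65) and Chro (2.63), and all 3 were untagged sites. The zinc finger gene pzg fell from 20.7 to 8.48, and pita went from 2.24 to 4.88. The region at CG1603, described above, is counted in this list.

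Of 12 glycolysis genes 1 had a wt-HA region (8.33%) and 5 a ΔM2-HA region (41.7%), with 4 gained (33.3%). These were Pgk (4.71), Pgi (4.02), Tpi (2.65) and Gapdh1 (2.40), while Pglym78 went from 4.33 to 3.73. Of 24 heat shock protein genes 0 had a wt-HA region and 5 gained one (20.8%), Hsp27 (7.23), Hsc70-5 (2.76), Hsp26 (2.61), Hsp68 (2.19) and Hsc70-4 (2.09). Of 25 adult muscle genes, 1 had a wt-HA region (4.00%) and 2 a ΔM2-HA region (8.00%) at the promoter. A ΔM2-HA summit lay within the gene for 10 of these 25 genes (40.0%), for 6 of the 12 glycolysis genes (50.0%), 9 of the 24 heat shock protein genes (37.5%), 9 of the 21 Polycomb group genes (42.9%) and 8 of the 16 architectural protein genes (50.0%). The share was 16.5% of all genes and 19.8% of protein-coding genes, with no correction for gene length.

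Genes used mostly in 1 tissue are read against the shares over all genes, 3.07% in wt-HA and 14.4% in ΔM2-HA (3.59% and 16.5% of protein-coding genes). Of 27 digestive protease genes none had a region in either list, which allows a share of up to 12.5% (Wilson). Of 51 odorant-binding protein genes 0 had a wt-HA and 2 a ΔM2-HA region (3.92%), of 48 seminal fluid protein genes 1 (2.08%) and 2 (4.17%), and of 15 photoreceptor genes 0 and 1 (6.67%). Of 17 yolk and eggshell genes 1 had a wt-HA region (5.88%), that of Cp18, which was lost, and 3 gained one (17.6%, 6.19 to 41.0%), Vm26Ab (3.52), Vm34Ca (3.37) and Vm26Aa (2.86). Of 294 genes in pericentromeric heterochromatin, 95 had a wt-HA region (32.3%) and 107 a ΔM2-HA region (36.4%), with 13 gained (4.42%) and 1 lost, CG17684 (8.29 in wt-HA), whose region was kept but no longer reached the TSS window. Of the 13, 4 gained only through a ΔM2-HA region over a wt-HA region. Of 118 genes on chromosome 4, 42 had a wt-HA region (35.6%) and 65 a ΔM2-HA region (55.1%), with 24 gained (20.3%), 6 of them through a wider region only, and 1 lost. The strongest on that chromosome in ΔM2-HA was 4E-T, which encodes a partner of the cap-binding translation factor, with 31.5 in wt-HA and 40.5 in ΔM2-HA. Of the promoters with a wt-HA region, 94 of 95 in heterochromatin and 484 of 561 over all genes had one in ΔM2-HA too. Promoters gained against lost were 13 against 1 in heterochromatin and 2149 against 77 over all genes.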

How the data were processed

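Chromatin of whole adult flies was precipitated with anti-HA antibodies in 2 biological replicates per line. Per the study's methods, the authors used cutadapt and sickle to trim reads, aligned them to dm6 with Bowtie2, removed PCR duplicates and non-uniquely mapped reads with Picard, removed blacklisted regions, called peaks with MACS2 against preimmune controls and kept reproducible peaks with the irreproducible discovery rate (IDR), with limits of 0.05 for replicates or 0.01 for pseudoreplicates. The largest IDR was 0.00991 in the wt-HA and 0.01000 in the ΔM2-HA list; which inputs were used is not given in the sources used here. By the measures of the study, reproducibility was good for ΔM2-HA and moderate for wt-HA. Removal of non-unique reads leaves repeats, which are frequent in heterochromatin, without values. No columns of other samples (0) were present.

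The deposited lists give region positions, fold enrichment (a ratio over the control), −log10 p-values from MACS2, and the IDR as a score on a −log10 scale capped at 5, as the authors deposited them; q-values were not used. Positions and −log10 p equal those of the first IDR input in all regions. Spearman's rho of −log10 p between the 2 inputs was 0.971 in wt-HA and 0.704 in ΔM2-HA. Read counts and depth per library are not part of the lists. Regions on unplaced scaffolds (21 in wt-HA and 30 in ΔM2-HA) were set aside.

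Overlaps, annotation (Ensembl release 115 on BDGP release 6, with transposable elements left out) and intervals were computed in Python 3.11.15 with pandas 2.3.3, numpy 2.4.6 and scipy 1.17.1, and tested on simulated regions. Coordinates are 1-based. The gene lists, the rule for named regions (the strongest kept, lost and new regions, the largest changes of rank and width, at most 4 members of a gene list by highest fold enrichment, with gained or lost members added after seeing values) and the comparison itself were chosen with earlier results of these data known. Alternatives covered the overlap rule, list length, thresholds, scaffolds, the promoter, untagged-site and heterochromatin definitions, the IDR input, 1 to 1 pairs and construct regions.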

Additional observations from a re-analysis of the deposited data

Results flagged for a closer look

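Regions on unplaced scaffolds, which the comparison leaves out, were present in both lists, 21 in wt-HA (median fold enrichment 2.97, highest 12.3) and 30 in ΔM2-HA (median 3.46, highest 9.70). They were picked out because they are a signal in data that the comparison does not use. Of each set 15 overlapped a region of the other list and 3 an untagged peak.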

How the results depend on the processing

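The 11 summary values were recomputed under 76 alternatives, 68 planned and 8 chosen after seeing the data. In 49 the value stayed within its own 95% interval, in 26 it left the interval without turning, and in 1 it turned: with an overlap of 50% of both regions, the kept share of heterochromatin minus euchromatin was -10.7 points, for which the width of the pairs accounts by construction. Under that overlap rule the kept share was 46.3%, the new share 95.9%, promoters (kept minus lost) 17.5 points, untagged sites 11.4 points (kept minus lost) and -60.3 points (new minus kept), and the width ratio 1.47 in heterochromatin and 1.15 in euchromatin. With summits within 200 bp, 67.6% were kept and 94.0% new. With lists of equal length, 50.3% were kept and 53.3% new, the heterochromatin difference was 50.8 points, promoters (new minus kept) -45.5 points, the euchromatic width ratio 1.52 and the X chromosome difference -0.362 points. At the cap of the IDR score, 83.8% were kept and 80.9% new, promoters differed by 17.4 points (kept minus lost) and -45.6 points (new minus kept), untagged sites by 12.4 points (kept minus lost), the euchromatic width ratio was 1.19 and the heterochromatin share (new minus wt-HA) -31.3 points. With embryo lists alone, untagged sites differed by 40.5 and -47.6 points. With chromosomes 4 and Y counted as heterochromatin, the share of new regions differed by -23.2 points. With pairs of 1 to 1, the heterochromatic width ratio was 1.91. The causes of the other changes were not tested. No paired analysis was possible because each protein has 1 list made from both replicates, and for the same reason no replicate could be left out. The depth of the libraries, and so the part of list length that depends on it, is unknown here.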

Other observations

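The 1514 new ΔM2-HA summits in coding exons lay in 1331 genes, with a median fold enrichment of 2.96 and a median GC content of 57.2%. Of these regions, 76.9% were in the Δ42-HA and 73.2% in the ΔZF-HA anti-HA list, against 3.50% in the anti-Mzfp1 list of the same ΔM2-HA flies and 46 regions (3.04%) at an untagged site. Among the genes with many new summits were mam (16), a coactivator gene of the Notch pathway, Rim (15), a gene of the presynaptic active zone, and fru (14), the sex determination factor of the nervous system, none of them with a new summit at an untagged site.

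The strongest new heterochromatic regions after those nearest to Spf45 and CG41099 lay 1441 bp from the TSS of CG17486 (fold enrichment 5.85), 4931 bp from lncRNA:CR45174 (5.52) and in an intron of Ir41a, an ionotropic receptor gene (5.52). The first was in the y1w1118 adult list and the other two were not. They were chosen after their values were seen. On the X chromosome lay 47 of the 1450 new regions of lowest fold enrichment (3.24%) and 111 of the 1450 of highest (7.66%), and 57 of the 487 new regions at an untagged site (11.7%).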
